A study of Saccharomyces cerevisiae with 12 samples.

Results

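The ribosome assembly factors described here are the 58 genes, of 6256 on the array, whose array names consist of NOP, UTP, RRP, NOC, NSA, NOG, NUG or DBP and a number. The rule uses names and no measured value, though it was set with earlier results of these data known. All 58 were measured on all 12 arrays and passed the filters, and all 58 systematic names are in the R64 annotation of the yeast genome, where UTP19 is called NOC4. The transcripts came from FY4, a prototrophic Mata strain of Saccharomyces cerevisiae in the S288C background, grown for 3 h on filters on minimal agarose and then moved to plates without glucose (carbon starvation) or without ammonium (nitrogen starvation). The same unmutated strain served both groups. Poly(A) RNA taken after 10, 30, 60, 120, 240 and 480 min was labelled with Cy5 and hybridised against Cy3-labelled RNA of the unstarved culture at time 0, with 1 array for each starvation and time. The values are log2 ratios of starved to time 0 signal, so that -1 is a fall by 1 doubling, and the 6 times of a starvation served as its observations. Errors therefore hold the time course as well as measurement noise, and no time had a second array.

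A ribosome is built in the nucleolus on a precursor RNA that RNA polymerase I makes. The UTP proteins belong to the small-subunit processome, which assembles around the 5′ end of that precursor together with the U3 small nucleolar RNA. NOC, NSA, NOG and NUG proteins ride on precursors of the large subunit, many NOP and RRP proteins act on one of the 2 subunits or in the nuclear exosome that trims RNA, and DBP proteins are DEAD-box RNA helicases. In yeast these genes are known to be transcribed together and to be shut off when growth stops.

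Of the members, 21 act on the small subunit by the roles used here, 21 on the large subunit, 7 are exosome subunits, 3 are core proteins of small nucleolar RNPs, 3 are helicases whose main work lies elsewhere, and 3 were given to no class. The array's own annotation placed 15 of the members in the nucleolus and gave 17 of them no known process.

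Before the results, 4 arrays stood apart from the other 8. These were carbon starvation at 10, 30 and 60 min and nitrogen starvation at 10 min. Between 42.7 and 78.4% of their spots had a Cy5 signal well above background, against 84.8 to 93.4% on the others. Their ratios, unlike those of the 8 others, did not match the values tabulated with the study for the same times. Over 1995 probes the correlations were 0.62, 0.63 and 0.42 on the 10, 30 and 60 min carbon arrays and 0.03 on the 10 min nitrogen array. On the 8 others they were 0.996 or more. It could not be settled whether these 4 arrays are the hybridisations their labels name, so their values are those of the arrays labelled with these times. Each main count is therefore also given without them. Of 696 member values, 19 had a Cy5 signal not well above background, 14 of them on these 4 arrays. Genes that mark each starvation were high under it at the later times. ADH2, PCK1, FBP1 and JEN1, which yeast uses on poor carbon sources, stood at 5.35 to 9.23 (log2 ratio) from 120 min of carbon starvation. On the carbon array labelled 60 min these genes stood at 2.26, 6.92, 4.82 and 5.67. On those labelled 10 and 30 min they stood between -0.42 and 1.48, PCK1 having no value at 10 min. MEP2, DAL5, GAP1 and DUR3, which take up nitrogen sources, stood at 0.46 to 5.38 from 60 min of nitrogen starvation, but at -0.20 to 1.04 at 30 min. Some carbon markers were also high without ammonium, where FBP1 reached 4.37 and PCK1 3.08 at 480 min. Equal amounts of RNA were hybridised, so a ratio is a share of poly(A) RNA, and a loss of all RNA alike, from fewer cells or from less RNA per cell, would not show in it.

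Nearly all assembly factor transcripts fell in both starvations. In carbon starvation 55 of 58 were lowered (limma, Benjamini-Hochberg adjusted p under 0.05 over 5578 genes), where 40.2% of all genes tested were lowered. In nitrogen starvation 51 of 58 were lowered, against 19.4% of all genes. No member was raised in either, where 914 of the 5578 genes were raised in carbon starvation and 1234 in nitrogen starvation. In all, 50 members were lowered in both. Over all genes that share was not computed, and it cannot exceed the 19.4% lowered in nitrogen starvation. The median of the members' mean changes was -2.38 in carbon starvation and -2.79 in nitrogen starvation (log2), falls of 5.19-fold and 6.91-fold, while the medians over all genes were -0.37 and 0.18. Without the 4 arrays that stood apart, 56 members were lowered in each starvation. With median centring of each array in place of equal totals the counts were 44 and 52, and with background correction by normexp and loess they were 40 and 52.

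**Figure D1:**
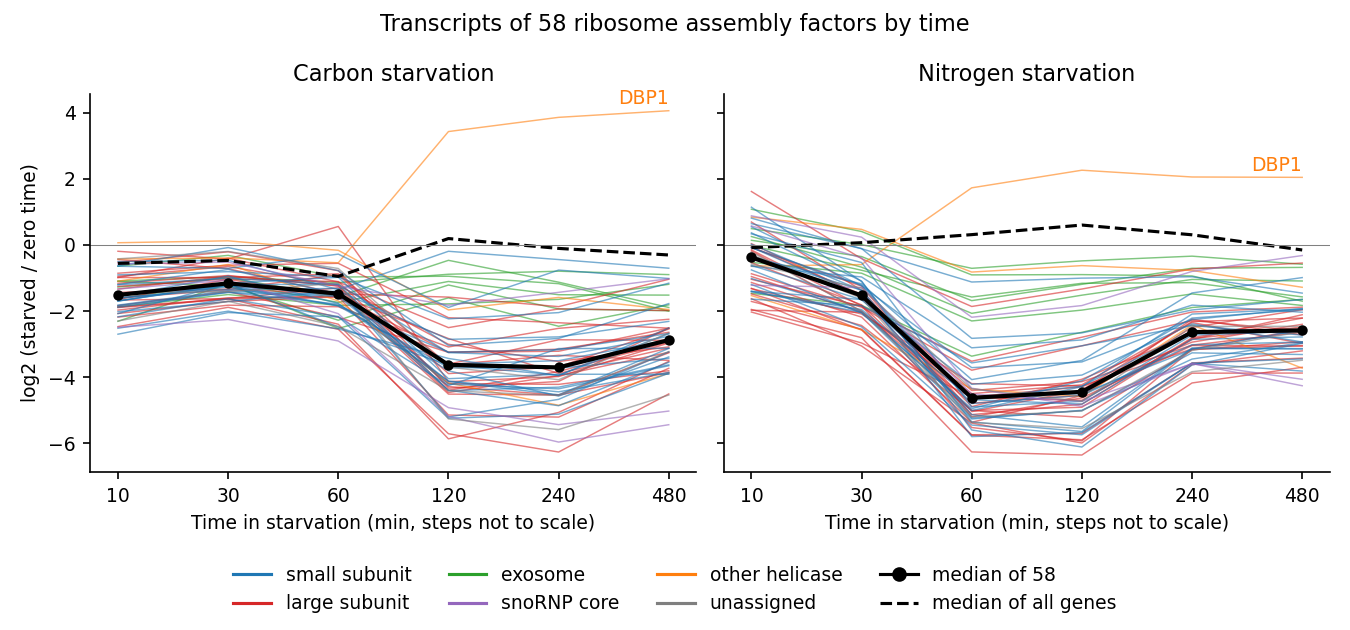
log2 ratio of starved to time 0 signal (vertical axis) against time in starvation (horizontal axis, minutes, steps not to scale) for the 58 members, 1 line each, coloured by role. The black line with points is the members' median, which reached -3.70 in carbon and -4.62 in nitrogen starvation, and the dashed line is the median of all genes, which stayed between -0.95 and 0.60.

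The courses are given by time. In carbon starvation the 6 successive medians over the members were -1.51, -1.16, -1.47, -3.63, -3.70 and -2.88. Those of nitrogen starvation were -0.38, -1.53, -4.62, -4.44, -2.64 and -2.58. Over all genes the medians were -0.56, -0.47, -0.95, 0.19, -0.10 and -0.30 in carbon starvation. In nitrogen starvation those of all genes were -0.08, 0.07, 0.31, 0.60, 0.31 and -0.15. The members' medians were thus lowest at 120 and 240 min without glucose and at 60 and 120 min without ammonium.

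The step in carbon starvation was tested as the mean of 120 to 480 min against the mean of 10 to 60 min. It was a fall for 28 members, where 16.1% of 5505 genes fell, and a rise for 1, DBP1, where 1660 of the 5505 genes rose. For 46 members every value at 120 to 480 min lay below every value at 10 to 60 min, an order that 22.9% of all genes had. All 3 early carbon arrays are among those that stood apart, so the step could not be measured without them. The same contrast in nitrogen starvation called no member and 0% of all genes, 6 members having an unadjusted p under 0.05. The lowest medians, at 60 and 120 min, lay one in each of its windows. The step did not differ between the starvations for any member after adjustment, 3 having an unadjusted p under 0.05, where 4.98% of all genes differed.

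A comparison chosen after the values were seen set nitrogen starvation at 240 and 480 min against 60 and 120 min. Its windows follow the members' own lowest medians, so its counts and adjusted p-values are descriptive. The shares of all genes are not a matched baseline, as the windows were not placed by those genes. In 52 members both later values lay above both earlier ones, an order found in 17.2% of all genes. The median difference was 1.82 (log2) over the members and -0.30 over all genes. It passed the test for 21 members, where 1.85% of all genes were higher. DBP7, a helicase of large-subunit assembly, rose by 2.73 ± 0.45 (SE, adjusted p = 0.0202), and NOG1 by 2.37 ± 0.51 (adjusted p = 0.0323). With normexp and loess the test called 0 members and without any 1 of the 4 arrays compared it also called 0, whereas without the 4 arrays that stood apart it called 37.

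From 120 min on, where no array was among the 4 that stood apart, 55 members were lowered in carbon starvation, against 36.7% of all genes, and 54 in nitrogen starvation, against 20.3%. The members' medians over these 3 times were -3.40 and -3.21. DBP1 was the 1 member raised in both, where 1510 of 5505 genes were raised in carbon starvation and 1539 in nitrogen starvation.

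The 6 genes of the NOC, NSA and NOG families were all lowered in both starvations, against 40.2% of all genes in carbon and 19.4% in nitrogen starvation. NOG1, a GTPase of large-subunit precursors, had the deepest mean fall of all 58. Its log2 ratios were -2.47, -1.89, -2.55, -5.71, -6.26 and -4.50 by time in carbon starvation, a mean of -3.90 ± 0.65 (SE, limma adjusted p = 0.000275). In nitrogen starvation they were -1.95, -2.80, -6.26, -6.35, -4.17 and -3.70, a mean of -4.21 ± 0.65 (adjusted p = 0.000419). All 12 values lay below the members' median on their array.

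NSA2, needed for processing of the large-subunit precursor RNA, followed with -1.87, -1.63, -2.40, -5.86, -5.06 and -3.52 in carbon starvation and -1.63, -3.06, -5.39, -5.99, -3.62 and -3.20 in nitrogen starvation. Its mean changes were -3.39 ± 0.60 (adjusted p = 0.000429) and -3.81 ± 0.60 (adjusted p = 0.000463). NOC2 forms complexes that travel with large-subunit precursors, one of them with NOC3. NOC2 changed by -2.71 ± 0.55 and -3.78 ± 0.55 (adjusted p = 0.000985 and 0.000289). NOC3 changed by -2.22 ± 0.56 and -2.62 ± 0.56 (adjusted p = 0.00408 and 0.00257), and was the 1 gene of the 6 that stood above 0 anywhere, at 0.04 after 10 min without ammonium.

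NOG2, a second GTPase of the large-subunit precursor, changed by -2.44 ± 0.47 in carbon and -3.20 ± 0.47 in nitrogen starvation (adjusted p = 0.000692 and 0.000304). It stood at -2.03 after 10 min and -2.96 after 30 min without ammonium, when the members' median was -0.38 and -1.53. NSA1, another protein of early large-subunit precursors, changed by -2.34 ± 0.44 and -3.05 ± 0.44 (adjusted p = 0.000625 and 0.000292). NUG1, a GTPase related to NOG2, changed by -2.79 ± 0.49 and -2.93 ± 0.49 (adjusted p = 0.000415 and 0.000667).

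Of the 16 UTP genes, 15 were lowered in carbon starvation and all 16 in nitrogen starvation, against 40.2 and 19.4% of all genes. Their median mean change was -2.68 and -2.84. UTP6, UTP13 and UTP21, all of the UtpB subcomplex of the processome, had the deepest mean falls of the family. UTP6 stood at -2.17, -1.63, -2.16, -5.24, -5.12 and -3.88 in carbon starvation and at 0.02, -1.37, -5.80, -5.67, -3.58 and -3.81 in nitrogen starvation. It changed by -3.37 ± 0.71 in each (adjusted p = 0.00133 and 0.00246), with a Cy5 signal not well above background at 60 and 240 min of carbon starvation.

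UTP13 fell furthest of the family on a single array, to -6.11 at 120 min without ammonium, from 0.55 at 10 min. UTP21 fell earlier, with -2.52, -2.0 and -2.54 on the first 3 carbon arrays and -1.41 and -2.04 on the first 2 nitrogen arrays. Over all 6 times UTP13 changed by -2.89 ± 0.78 and -3.14 ± 0.78 (adjusted p = 0.0063 and 0.00627), and UTP21 by -2.83 ± 0.45 and -3.35 ± 0.45 (adjusted p = 0.000183 and 0.00018).

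The members in the 2 largest subcomplexes of the processome had similar falls. The 6 members in UtpA (UTP4, UTP5, UTP8, UTP9, UTP10 and UTP15), which binds the precursor RNA first, had median mean changes of -2.79 and -2.88, all lowered in both starvations. The 4 members in UtpB (UTP6, UTP13, UTP18 and UTP21) had -2.86 and -3.25, also all lowered. Of all genes, 40.2% were lowered in carbon and 19.4% in nitrogen starvation. Genes of these subcomplexes with other names are not in these medians.

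UTP22 and RRP7, partners in the small UtpC subcomplex, fell less. UTP22 stood at -0.63, -0.08, -0.78, -3.04, -2.83 and -1.77 in carbon starvation and at 0.64, -0.11, -2.82, -2.66, -1.97 and -1.65 in nitrogen starvation. Its mean changes were -1.52 ± 0.48 (adjusted p = 0.0156) and -1.43 ± 0.48 (adjusted p = 0.0295). RRP7 stood at -0.50, -0.46, -1.35, -0.19, -0.44 and -0.70 in carbon starvation and at 0.81, -0.11, -1.12, -1.0, -0.96 and -1.46 in nitrogen starvation. RRP7 passed the test in neither (mean -0.61 ± 0.27 and -0.64 ± 0.27, adjusted p = 0.0703 and 0.0724).

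UTP7, a processome protein, was called in nitrogen starvation alone. It stood at -0.64, -0.71, -0.28, -1.89, -0.76 and -1.01 in carbon starvation, a mean of -0.88 ± 0.42 (adjusted p = 0.0911). In nitrogen starvation it stood at 0.37, -1.23, -3.71, -3.54, -2.26 and -1.92, a mean of -2.05 ± 0.42 (adjusted p = 0.00223). The difference itself, -1.17 ± 0.60, did not pass the test (adjusted p = 0.237), so the starvations are not shown to differ for this gene. Without the nitrogen array at 10 min it was -1.65 (adjusted p = 0.0372).

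**Figure D2:**
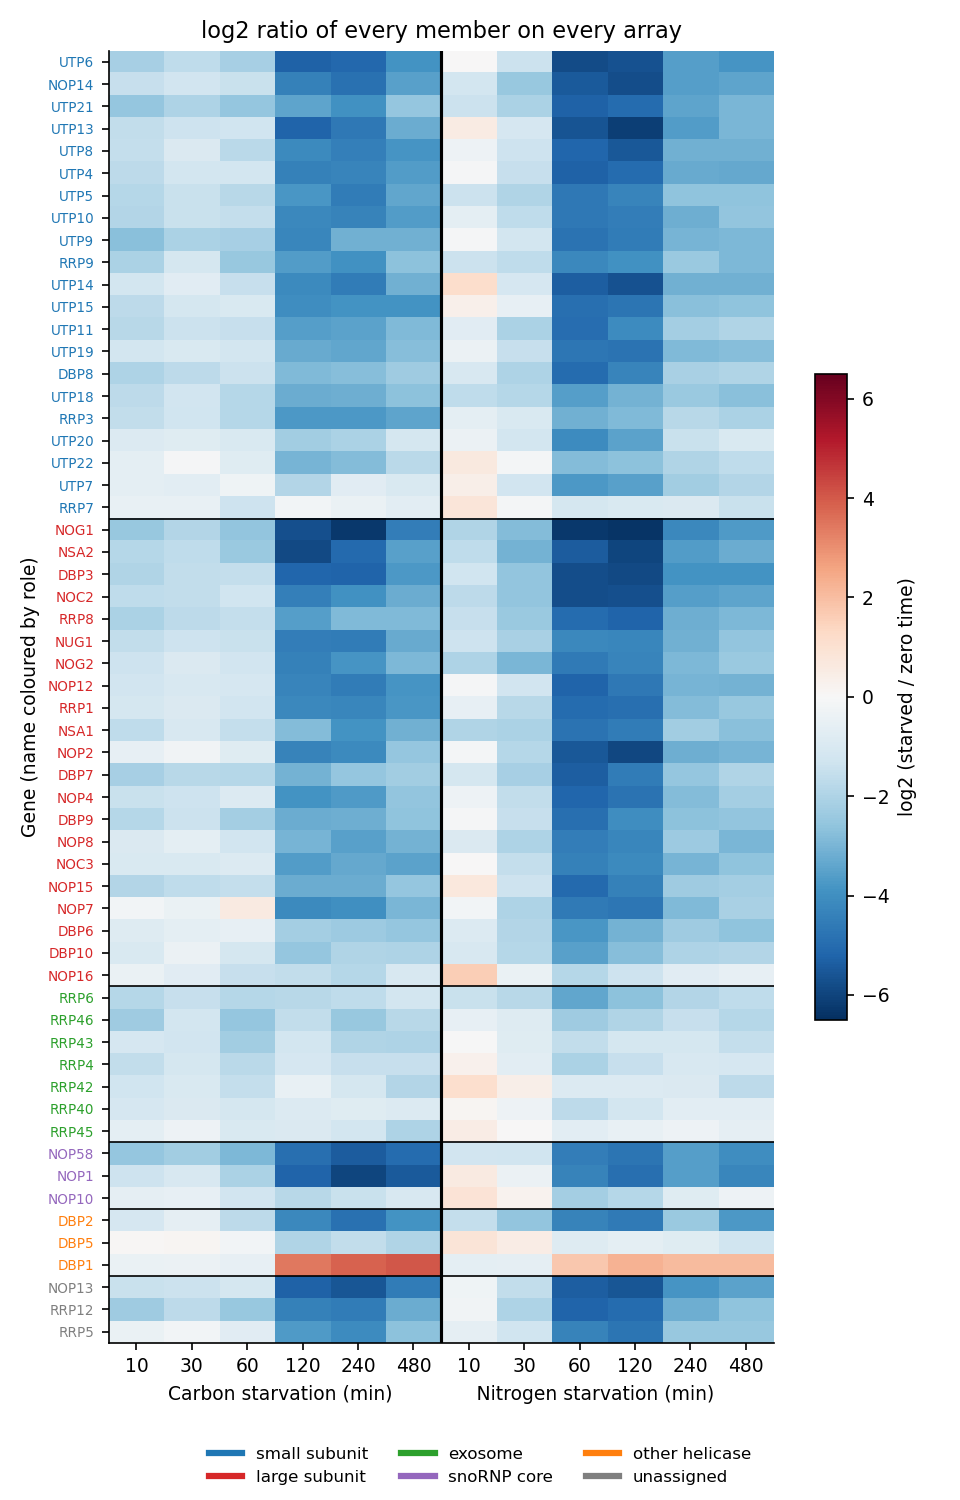
log2 ratio of starved to time 0 signal (colour) for each of the 58 members (rows, grouped by role with black lines and ordered by mean change) on each of the 12 arrays (columns, minutes in each starvation). Blue is below and red above time 0. The exosome rows have a median between -1.81 and 0.14, with RRP6 down to -3.36, and DBP1 is red from 120 min of carbon and 60 min of nitrogen starvation.

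The small-subunit UTP genes were then set against the 6 large-subunit NOC, NSA and NOG genes on each array. In carbon starvation the UTP median less the large-subunit median was -0.04, 0.12, -0.09, 0.50, -0.01 and 0.24 by time, a mean of 0.12 ± 0.22 (SD, n = 6 times). Those differences lay on both sides of 0. In nitrogen starvation they were 1.62, 1.30, 0.24, 0.48, 0.36 and 0.21, a mean of 0.70 ± 0.60 (SD, n = 6 times). Here the UTP median was the higher on all 6 arrays, most at the first 2 times.

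After 10 min without ammonium the UTP median was -0.21 and that of the 6 large-subunit genes -1.83. After 30 min they were -1.37 and -2.68. All 16 UTP genes stood above the large-subunit median on both arrays, and 5 and 11 of them stood above all 6 large-subunit genes. The array at 10 min is 1 of those that stood apart, and the array at 30 min is not. Without the 4 arrays the mean difference in nitrogen starvation was 0.52.

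The difference was smaller over wider lists. Over the 21 small-subunit and 21 large-subunit members it was 0.58 and 0.63 at the first 2 nitrogen times, and over 40 small-subunit and 43 large-subunit factors with other names it was 0.26 and -0.03. The 15 large-subunit members outside NOC, NSA and NOG themselves had medians 1.30 and 0.82 above that of the 6. Among the factors with other names the small-subunit list was the higher at later times instead, by 0.74, 0.73 and 0.59 at 120, 240 and 480 min of carbon starvation and by 0.60 and 1.02 at 60 and 120 min of nitrogen starvation. The members of a list are not replicates of one another, and no test was run on these medians.

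**Figure D3:**
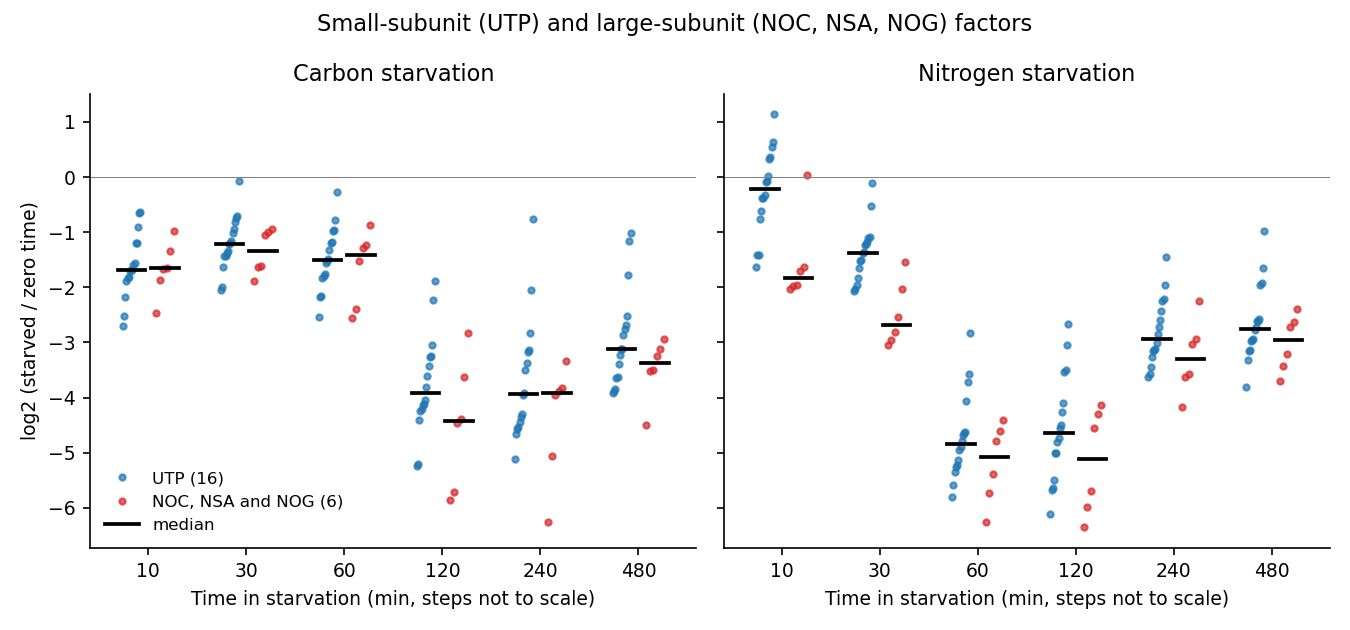
log2 ratio of starved to time 0 signal (vertical axis) by time (horizontal axis, minutes, steps not to scale) for 16 UTP genes (blue points) and 6 NOC, NSA and NOG genes (red points), with a bar at each median. The medians lie 1.62 and 1.30 apart at 10 and 30 min of nitrogen starvation and at most 0.50 apart on the other 10 arrays.

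The exosome genes had smaller mean changes than most members. All 7 (RRP4, RRP6, RRP40, RRP42, RRP43, RRP45 and RRP46) were lowered in carbon starvation and 5 in nitrogen starvation, against 40.2 and 19.4% of all genes. Their median mean changes were -1.44 and -1.02. With normexp and equal totals RRP4, RRP40, RRP42, RRP43, RRP45 and RRP46 lost the carbon call. With normexp and loess RRP40, RRP42 and RRP45 lost it, and with median centring RRP40 and RRP45 did. By time the median of the 7 was -1.27, -1.14, -1.74, -1.10, -1.50 and -1.81 in carbon starvation and 0.14, -0.67, -1.68, -1.19, -1.04 and -1.57 in nitrogen starvation. None of the 7 was among the 28 members that fell further after 60 min without glucose, where 16.1% of all genes did. Their median difference between those windows was 0.12, against -2.02 over the members and 0.41 over all genes. Less the median of all genes on each array, the exosome median was -0.72, -0.67 and -0.79 at 10 to 60 min without glucose. At 120 to 480 min it was -1.30, -1.40 and -1.51, so on that scale it was lower at the later times. Whether the exosome genes differ from the other members was not tested.

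RRP40, a subunit of the exosome's cap, lay within -1.14 to -0.79 on all 6 carbon arrays. RRP6, the exosome's nuclear exonuclease, fell furthest of the 7 in nitrogen starvation, by 2.14, with its lowest value, -3.36, at 60 min. RRP45, a ring subunit, changed by -1.01 ± 0.23 in carbon starvation (adjusted p = 0.00234) and by -0.27 ± 0.23 in nitrogen starvation (adjusted p = 0.359). Its values were -0.64, -0.31, -0.97, -0.95, -1.17 and -2.0 without glucose and 0.49, 0.01, -0.71, -0.48, -0.34 and -0.58 without ammonium, and the difference of 0.74 ± 0.33 did not pass the test (adjusted p = 0.168).

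As a description over the 12 arrays, which share the time 0 reference, 37 of 58 members had a correlation above 0.9 with the median of the other members. The share of all genes above 0.9 with that median was not computed, so the count is not shown to be particular to the members. The exosome genes had correlations of 0.36 to 0.63. The 6 exosome genes and cofactors with other names (DIS3, SKI6, MTR3, CSL4, LRP1 and MTR4) had median mean changes of -1.43 and -1.03, close to those of the 7 members.

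The other RRP genes with the deepest falls were RRP12, RRP8 and RRP1. RRP12, which helps export both subunits, changed by -3.11 ± 0.57 and -3.04 ± 0.57 (adjusted p = 0.000505 and 0.00118). RRP8, a methyltransferase of the large-subunit RNA, changed by -2.45 ± 0.44 and -3.37 ± 0.44 (adjusted p = 0.000426 and 0.000156). RRP1, a large-subunit factor, changed by -2.59 ± 0.61 and -2.93 ± 0.61 (adjusted p = 0.00278 and 0.0023). All 3 stayed below 0 on all 12 arrays.

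Among the NOP genes, NOP58 had the largest fall averaged over both starvations, though NOP14, NOP13 and NOP2 had larger ones in nitrogen starvation. NOP58 is a core protein of the box C/D small nucleolar RNPs, which guide methylation of ribosomal RNA. It stood at -2.49, -2.25, -2.90, -4.92, -5.43 and -5.02 in carbon starvation, with its Cy5 signal not well above background at 60 min, and at -1.22, -1.29, -4.51, -4.73, -3.59 and -4.06 in nitrogen starvation. The mean changes were -3.84 ± 0.55 (adjusted p = 9.41e-05) and -3.23 ± 0.55 (adjusted p = 0.000673). At 480 min of carbon starvation it stood at -5.02 and the members' median at -2.88.

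NOP13, a nucleolar RNA-binding protein, changed by -3.23 ± 0.74 and -3.36 ± 0.74 (adjusted p = 0.00239 and 0.00333). NOP14, which works with the product of UTP19 on the small subunit, changed by -2.83 ± 0.61 and -3.65 ± 0.61 (adjusted p = 0.00147 and 0.00061). NOP10 and NOP16 fell least of the family. NOP10, the small core protein of box H/ACA RNPs, stood between -1.82 and -0.52 in carbon starvation and between -2.19 and 0.88 in nitrogen starvation. NOP16, a large-subunit factor, stood between -1.87 and -0.44 and between -1.86 and 1.62. Both were lowered in carbon starvation (adjusted p = 0.0156 and 0.0114) and not called in nitrogen starvation (adjusted p = 0.136 and 0.229).

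**Figure D4:**
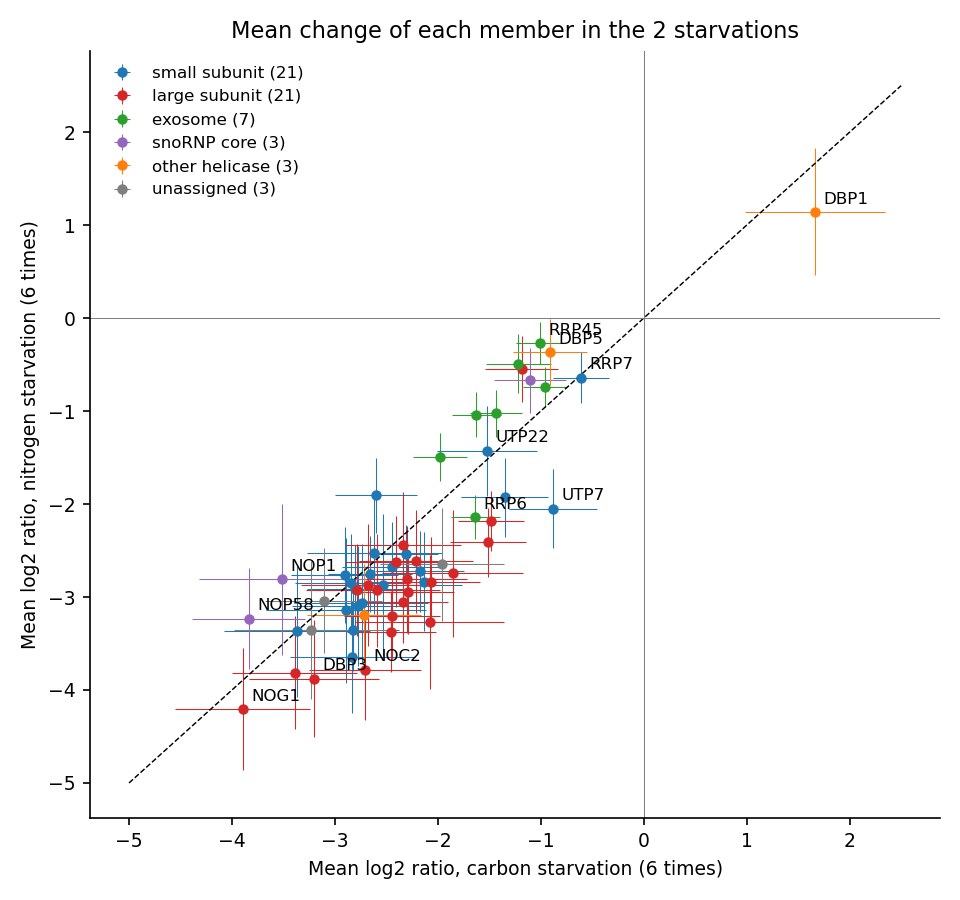
Mean log2 ratio over the 6 times of nitrogen starvation (vertical axis) against that of carbon starvation (horizontal axis) for the 58 members, coloured by role, with bars of 1 limma standard error and a dashed line of equal change. NOG1 lies lowest at -3.90 and -4.21, DBP1 lies at 1.66 and 1.14 with wide errors, and the exosome genes lie nearer 0 than most.

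The 9 DBP helicases spanned the widest range. Those of large-subunit assembly fell with the rest. DBP3 changed by -3.20 ± 0.63 in carbon and -3.88 ± 0.63 in nitrogen starvation (adjusted p = 0.000827 and 0.000534), and DBP7 by -2.29 ± 0.45 and -2.95 ± 0.45 (adjusted p = 0.000785 and 0.000359). DBP2, a helicase of messenger RNA metabolism that also takes part in ribosomal RNA processing, changed by -2.71 ± 0.56 and -3.20 ± 0.56 (adjusted p = 0.00108 and 0.000783).

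DBP5, which acts in export of messenger RNA, changed less. It stood at 0.07, 0.13, -0.16, -1.97, -1.59 and -1.95 in carbon starvation and at 0.84, 0.47, -0.82, -0.62, -0.77 and -1.28 in nitrogen starvation. Its mean fall of 0.91 ± 0.36 in carbon starvation was close to the threshold (adjusted p = 0.0419) and lost the call under 10 of the alternatives. That of nitrogen starvation was not called (-0.36 ± 0.36, adjusted p = 0.421).

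DBP1 moved the other way. It encodes a helicase closely related to Ded1, which unwinds leader sequences in translation initiation. In carbon starvation DBP1 stood at -0.43, -0.39 and -0.54 at 10, 30 and 60 min, with its Cy5 signal not well above background on these 3 arrays, and at 3.43, 3.86 and 4.06 at 120, 240 and 480 min. The groups did not overlap, and the later Cy5 signal was at least 16.5-fold higher than the earlier bound (limma adjusted p = 0.000159 for late against early). That bound sets the later mean signal against the lowest signal that was well above background, or DBP1's own where higher, after loess and Aquantile normalization of each channel without a dye swap. In nitrogen starvation DBP1 stood at -0.64 and -0.59 at 10 and 30 min, the first not well above background, and at 1.73, 2.26, 2.05 and 2.04 from 60 to 480 min.

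Over 120 to 480 min DBP1 was higher by 3.78 ± 0.37 in carbon starvation (adjusted p = 3.1e-06) and by 2.12 ± 0.37 in nitrogen starvation (adjusted p = 0.000668). Over all 6 times its means of 1.66 ± 0.68 and 1.14 ± 0.68 did not pass the limma test (adjusted p = 0.0512 and 0.191). The carbon mean passed it under 12 alternatives and not under 10. Among the 12 were median centring (adjusted p = 0.0149) and the time point as a block (adjusted p = 0.00337). The nitrogen mean passed under 2, the time point as a block (adjusted p = 0.0278) and the 4 arrays that stood apart left out (adjusted p = 0.00414). The sizes moved with the background correction. The carbon and nitrogen means were 0.92 and 0.42 with normexp and loess, and 2.08 and 0.22 with normexp and equal totals. The related gene DED1, which is not a member, stood between -4.16 and -1.39 on the 6 carbon arrays and between -3.24 and -1.85 on the 6 nitrogen arrays.

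The starvations were compared directly. Over all 6 times no member passed the test of a difference between nitrogen and carbon starvation (limma, 1 of 58 at an unadjusted p under 0.05). Of all genes, 10.5% passed it. The errors hold the time course, and NOC2, for example, differed by -1.07 ± 0.77 (SE, adjusted p = 0.418). The members are therefore not shown to change alike in both. Members' differences ran from -1.19 to 0.74 (log2), with a median of -0.28, against 0.39 over all genes. Without the 4 arrays that stood apart, which leaves 30 to 480 min of nitrogen against 120 to 480 min of carbon starvation, 4 members differed: RRP45, RRP3 and DBP5 were higher in nitrogen starvation by 0.95, 1.46 and 1.23 (adjusted p = 0.0487, 0.0351 and 0.0348) and DBP1 was lower by 2.28 (-2.28, adjusted p = 0.0155). RRP3, a helicase of the small subunit, is named here because of that call. At the matched times of 120 to 480 min RRP45, RRP3 and DBP5 did not pass the test (adjusted p = 0.146, 0.112 and 0.149).

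Over 120 to 480 min 1 member passed the test, DBP1 (-1.66 ± 0.52, adjusted p = 0.048), where 16.2% of all genes did. All 3 carbon values lay above all 3 nitrogen values. The adjusted p was between 0.00124 and 0.146 under the alternatives, and the call was lost under 13 of them, among them the time point as a block (adjusted p = 0.06) and the 4 arrays left out (adjusted p = 0.053).

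Factors with other names fell to a similar extent. Of 40 further small-subunit factors, 39 were lowered in carbon starvation and 38 in nitrogen starvation, with median mean changes of -2.22 and -2.53. Of 43 further large-subunit factors, 41 and 40 were lowered, with medians of -2.51 and -2.83. Of 7 subunits of RNA polymerase I, which makes the precursor RNA, 6 were lowered in each, with medians of -2.39 and -2.55. Of all genes, 40.2% were lowered in carbon and 19.4% in nitrogen starvation.

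The transcripts of 137 cytosolic ribosomal proteins, the products that assembly factors put together, are shown for comparison. Of these 118 were lowered in carbon starvation and 91 in nitrogen starvation, against 40.2 and 19.4% of all genes. Their medians were -2.20 and -1.74. Their median stood at 0.18 and 0.03 at 10 and 30 min without ammonium, where that of the assembly factors stood at -0.38 and -1.53, and at -2.79 at 60 min, where that of the assembly factors stood at -4.62. At 120 and 240 min without glucose the ribosomal proteins were the lower, at -4.19 and -4.02 against -3.63 and -3.70. The difference between these lists was not tested.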

How the data were processed

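Two-colour Agilent yeast arrays were scanned and extracted by the authors with Agilent Feature Extraction, and the deposited intensity values are its background-subtracted, dye-normalized Cy5 and Cy3 signals. The authors also deposited a series table of log2 ratios, used as an alternative here. The deposited log10 ratio of Cy5 to Cy3 served only to compare each array with the tabulated values. Spots flagged as outliers were dropped, as were those that neither channel showed well above background. Each array's ratios of the 10263 non-control spots were scaled to equal total signal in both channels, put on the log2 scale and averaged over the spots of a gene (2 spots for 42 members, 1 for 16). Tests used limma 3.58.1 in R 4.3.3 across genes that had 4 or more values per starvation (5578 genes), or at least 2 in each window of times (5505; 5392 for the added comparison), with Benjamini-Hochberg adjustment at 0.05. On simulated data of 5578 genes, of which 200 changed by 3 (log2), the carbon, nitrogen and between-starvation tests recovered 98, 99.5 and 94%, and on 5505 genes the test of the difference of courses recovered 73.5%. Of the genes called by these tests, 6.67, 4.33, 6.93 and 5.16% were unchanged ones. The simulated noise held no time course, and members' differences between the starvations, -1.19 to 0.74, were smaller than 3. Recovery of differences of that size was not measured. The number of arrays limits the precision. Members, roles and lists were chosen with earlier results of these data known. Named genes were all NOC, NSA, NOG and NUG members, the 3 largest and 2 smallest mean falls of each other family, members differing between starvations and members lowered in neither; RRP3, RRP6 and RRP40 were named after their values were seen. RPP1, a subunit of RNase P, was left out of the ribosomal proteins. No sequences were analysed here. The alternatives were other scalings, background corrections and filters, the series table, a change of at least 1, blocks for time point or (random) slide, a robust variance with a trend, and each array left out.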

Additional observations from a re-analysis of the deposited data

Results flagged for a closer look

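With the main processing DBP1 was the 1 named member whose change differed between the starvations by a test of the difference itself, at -1.66 (log2, nitrogen less carbon starvation over 120 to 480 min). That call was lost under 13 of 22 alternatives. Under some of them RRP3, RRP6, RRP45, DBP5, UTP7 or NOP1 passed such a test. No sample of the named members or of the list medians lay far from the others of its starvation in the 68 groups of 6 that were examined.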

How the results depend on the processing

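Counts of lowered members stayed within 1.5 times under every alternative. Each array left out in turn gave 49 to 57 members lowered in carbon and 48 to 55 in nitrogen starvation, 0 to 1 differing over all times (UTP7), 0 to 4 differing over 120 to 480 min (4 without nitrogen starvation at 60 min: DBP1, NOP1, RRP3 and DBP5), 0 to 35 higher at 240 and 480 than at 60 and 120 min of nitrogen starvation, and median subunit differences of 0.04 to 0.16 in carbon and 0.52 to 0.80 in nitrogen starvation. Over all times 2 members differed with normexp and equal totals (RRP6 and DBP1) and 4 without the 4 dim arrays. Over 120 to 480 min 0 differed with no filter on dim spots, with both channels above background on all arrays (39 members, not DBP1), with a trended robust variance and without the 4 dim arrays. The nitrogen comparison chosen after the values were seen called 0 members with normexp and loess and 1 with normexp and equal totals. It called 12 with no filter, 47 with the slide as a random block and 37 without the 4 dim arrays. The carbon subunit difference was 0.62 with normexp and equal totals, 0.38 with both channels above background, -0.11 over all members with a known subunit and 0.40 for means in place of medians. The cause of these moves was not tested. Deviations of arrays of the same time from the starvation means correlated at 0.44 to 0.65 at 5 times but at -0.40 at 60 min. The main fit was planned without time as a block, though most of these correlations were positive, and the block was run as an alternative. With the time point as a replicate block 57 and 53 members were lowered, 0 differed over all times and 0 over 120 to 480 min. Of 2452 comparisons of named members with their main value, 2367 kept direction and call, 38 gained and 47 lost the call, and none with a call reversed. Moving NOC4 between classes did not apply, since the array names it UTP19, and motif searches were not run. Dim Cy5 signal limits the early carbon values most.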
